A study of Homo sapiens with 20 samples.

Results

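Cisplatin and tetrathiomolybdate (TM) were compared directly with each other after 12 h in MDA-MB-231, an established cell line of human breast cancer that lacks estrogen, progesterone and HER2 receptors. The members were the 3 arrays titled Cis at 12 h (A, B and C) and the 2 arrays titled TM at 12 h (A and B), 5 of the 20 arrays of the study, and no control array entered the comparison. Cis cells had received 36 µM cisplatin alone for 12 h and TM cells 10 µM TM alone for 12 h, 1 dose of each drug, so the values set 1 dose against another and not drug against drug at an equal effect. The other arrays were 3 of cells treated with both drugs at 12 h, 3 each of Cis, TM and both drugs at 24 h, and 3 Control arrays, whose labels give no time. Each of 18417 genes with a single symbol was represented by its transcript cluster with the highest mean over the 20 arrays, and all levels below are log2 RNA signals.

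Cisplatin is a platinum drug that binds purines and crosslinks DNA, which blocks replication and transcription and sets off the DNA damage response. TM is a copper chelator, first used against copper overload. The drugs meet at the copper handling proteins, because the importer SLC31A1 and the exporting pumps ATP7A and ATP7B have been linked to platinum uptake and export. The comparison asks which RNAs separated the cells under the DNA crosslinker from the cells under the chelator at the earlier of the study's times.

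The arrays of a group resembled each other more than those of the other group. Correlations across genes were 0.987, 0.989 and 0.996 between the Cis arrays and 0.997 between the TM arrays, against 0.957 to 0.973 between a Cis and a TM array (genes are not independent replicates). Cis array A stood somewhat apart from B and C. Its median was 5.94, against 5.88 and 5.87 on Cis arrays B and C and 5.80 and 5.82 on the TM arrays, and its SD over genes was 2.03, against 2.15 and 2.12 on Cis arrays B and C and 2.18 and 2.14 on the TM arrays. Cis array A was the lowest of the 3 Cis arrays in 1598 of the 1888 genes called lower in Cis cells. Among the 1271 called higher, it was the lowest in 649. The 12 h counts of each gene list are therefore also given without Cis array A where they move. A median is given without it where it moves by more than 1.5 times. Cells had been treated in triplicate in multiwell plates, and nothing states that arrays came from separate cultures, so p-values measure the spread between these arrays, which may be technical. RNA came from whole cultures, in which fewer cells with a transcript and less of it per cell cannot be told apart. The line's own markers were high, with means of 10 markers of 9.43 to 9.55 on the Cis arrays and 9.71 to 9.75 on the TM arrays, and VIM and CD44 were above 11 on all 5 arrays, whereas 12 markers of leukocytes, endothelium, fibroblasts and adipocytes averaged 3.91 to 4.10 on the Cis arrays and 3.82 to 3.88 on the TM arrays, with 0 called.

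At 12 h, 3159 of 18417 genes differed between Cis and TM cells by more than 1.5-fold with an adjusted p under 0.05 (limma). Of these, 1271 (6.9%) were higher in Cis cells, led by ID2, RND1 and STARD5, and 1888 (10.3%) were lower in Cis cells, led by ARHGAP42, DOCK10 and SEMA3A. The counts of each gene list below are to be read beside these shares of 6.9% and 10.3%. The lower side held more of the large differences. Past 2-fold there were 348 higher and 839 lower genes, and past 4-fold 31 higher and 81 lower genes. Among all genes, 9543 (51.8%) had Cis and TM arrays that did not overlap, 5316 higher and 4227 lower in Cis cells, and 3153 of the 3159 called genes were among them. In 1120 of the 1271 higher genes and 1525 of the 1888 lower genes, the Control mean lay nearer to the TM mean than to the Cis mean. In 733 of the higher genes the Control mean lay below both groups, and in 625 of the lower genes above both.

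The split between directions depended on how the arrays were scaled. With the deposited values, 40.2% of called genes were higher in Cis cells and the median difference over all genes was 0.065. With each array centred on its median, 942 genes were higher and 2228 lower (29.7% higher, median difference -0.028), and all 942 were among the 1271. Without Cis array A, 1377 genes were higher and 1581 lower (median difference 0.022), of which 1165 and 1554 were among the genes called with it. The direction also went with level. With genes in 4 bins of mean level, the lowest bin of 4605 genes held 39 higher and 37 lower genes. The other bins, of 4604 genes each, held 218 and 167, then 574 and 670, and in the highest 440 and 1014.

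ID2, which binds helix-loop-helix transcription factors and keeps them off DNA, showed the largest difference of all genes tested. Its level was 9.29, 9.52 and 9.49 on Cis arrays A, B and C, against 5.24 and 5.28 on TM arrays A and B, a difference of 4.17 ± 0.23 (SE, adjusted p = 2.66e-10), which is 18-fold. RND1, a protein that loosens the actin cytoskeleton, was at 7.93, 7.97 and 7.57 on Cis arrays A, B and C, against 4.77 and 4.56 on TM arrays A and B, 8.92-fold higher in Cis cells. STARD5, a lipid transfer protein, was at 8.69, 8.47 and 8.80 on the Cis arrays and 5.77 and 5.57 on the TM arrays. In all 3 genes every Cis array lay more than 2 log2 units above both TM arrays, and the Control means (5.04, 4.45 and 6.12) lay near the TM arrays.

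The next genes on the higher side follow. The leading genes of both directions were taken only from called genes whose Cis and TM arrays did not overlap. RGS2, a regulator of G protein signalling, reached 10.02, 10.18 and 10.02 on the Cis arrays and 7.31 and 7.18 on the TM arrays, a difference of 2.83 ± 0.13 (SE, adjusted p = 3.13e-11). BAMBI, a pseudoreceptor that damps TGF-beta signalling, was at 9.82, 9.89 and 9.84 on the Cis arrays and 7.31 and 7.19 on the TM arrays, a difference of 2.60 ± 0.12 (SE, adjusted p = 3.13e-11). CXCL8, a neutrophil chemokine, was 6-fold higher, with 8.68, 9.13 and 8.66 on the Cis arrays and 6.38 and 6.09 on the TM arrays. The Cis arrays lay within 0.5 log2 units of each other in these 3 genes. NR4A2, an orphan nuclear receptor of the immediate early class, differed by 2.76 ± 0.21, SAT1, the acetyltransferase that starts polyamine breakdown, by 2.72 ± 0.16, and MYLIP, a ubiquitin ligase of the LDL receptor, by 2.62 ± 0.15. The olfactory receptor pseudogene OR1F2P (2.80 ± 0.31) and DEXI, a dexamethasone-induced transcript (2.57 ± 0.30), had wider errors. In DEXI the TM arrays lay apart, at 5.58 and 4.38.

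SLFN5, a Schlafen family gene, was at 10.04, 10.29 and 10.19 on the Cis arrays and 7.33 and 7.39 on the TM arrays, a difference of 2.82 ± 0.13 (SE, adjusted p = 3.13e-11), with a Control mean of 9.13. The Control mean thus lay between the groups, with a Cis mean minus Control of 1.05 and a TM mean minus Control of -1.77. It also lay between them in OR1F2P (5.33) and DEXI (6.12), with Cis means minus Control of 1.90 and 1.43 and TM means minus Control of -0.89 and -1.15.

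**Figure D1:**
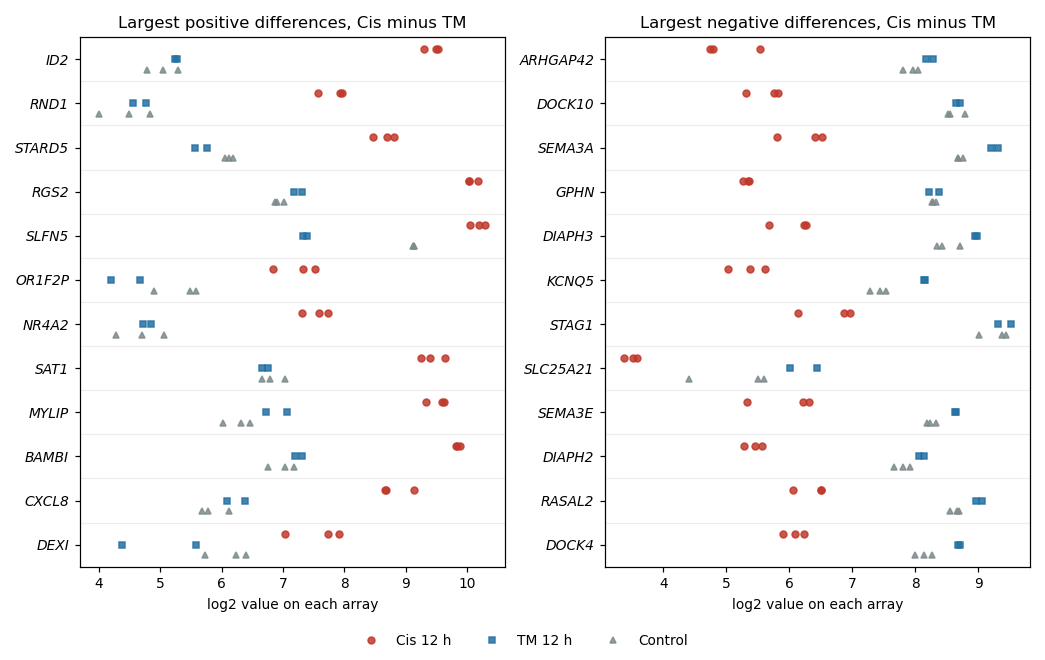
Log2 level on each of the 3 Cis and 2 TM arrays at 12 h, with the Control arrays for orientation, for the 12 largest positive and the 12 largest negative differences. Each point is 1 array. These 24 genes were chosen from called genes whose Cis and TM arrays do not overlap. They run from ID2 (difference 4.17) to DEXI (2.57) on the higher side and from ARHGAP42 (-3.21) to DOCK4 (-2.61) on the lower side.

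The 12 largest differences on the lower side included those of ARHGAP42, DOCK10 and SEMA3A. ARHGAP42, a GTPase-activating protein, was at 4.74, 5.54 and 4.79 on Cis arrays A, B and C, against 8.28 and 8.18 on TM arrays A and B, a difference of -3.21 ± 0.19 (SE, adjusted p = 5.67e-10) or 9.23-fold. DOCK10, a guanine nucleotide exchange factor, was at 5.30, 5.76 and 5.83 on the Cis arrays and 8.70 and 8.64 on the TM arrays, 8.24-fold lower in Cis cells. SEMA3A, a secreted guidance factor, was at 5.80, 6.51 and 6.41 on the Cis arrays and 9.31 and 9.19 on the TM arrays. The highest Cis array lay more than 2 log2 units below the lowest TM array in all 3, with Control means of 7.93, 8.61 and 8.70 near the TM arrays.

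GPHN encodes gephyrin, which anchors inhibitory receptors at synapses and catalyses the insertion of molybdenum into the molybdenum cofactor. Its level was 5.27, 5.35 and 5.36 on the Cis arrays and 8.37 and 8.21 on the TM arrays, a difference of -2.97 ± 0.15 (SE, adjusted p = 6.17e-11), and its Control mean of 8.29 matched the TM arrays. Pairs of related genes stood side by side in this group: the formins DIAPH3 (-2.90 ± 0.17) and DIAPH2 (-2.66 ± 0.18), which elongate actin filaments, the semaphorin SEMA3E (-2.69 ± 0.20) beside SEMA3A, and the exchange factor DOCK4 (-2.61 ± 0.16) beside DOCK10. The potassium channel KCNQ5 (-2.81 ± 0.16), the cohesin subunit STAG1 (-2.76 ± 0.18), the mitochondrial carrier SLC25A21 (-2.73 ± 0.30) and the Ras GTPase-activating protein RASAL2 (-2.66 ± 0.12) completed the 12.

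Genes of copper handling moved in both directions. Of 22 measured, 4 were higher and 3 lower in Cis cells, with a median difference of -0.16 beside 0.065 over all genes, and with arrays centred on their median the counts were 2 higher and 5 lower. Without Cis array A they were 3 and 3, with a median of -0.014 beside 0.022 over all genes. The exporter ATP7A, the copper pump through which the study connected copper and cisplatin, was lower in Cis cells. Its level was 5.68, 6.51 and 6.29 on Cis arrays A, B and C, against 7.50 and 7.55 on TM arrays A and B, a difference of -1.37 ± 0.18 (SE, adjusted p = 5.35e-06), 2.58-fold. Both TM arrays lay about 1 log2 unit or more above every Cis array, and the Control mean was 7.91, with a Cis mean minus Control of -1.75 and a TM mean minus Control of -0.39. At 24 h the difference was -0.15, and the difference between the times was -1.22 ± 0.24 (SE, adjusted p = 0.00211).

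ATP7B, the other exporting pump, had a low signal at 4.24, 3.89 and 4.21 on the Cis arrays and 4.30 and 4.35 on the TM arrays, a difference of -0.22 ± 0.19 (SE, adjusted p = 0.462) that did not pass the test. SLC31A1, the main copper importer, was abundant and nearly equal, at 11.02, 11.07 and 11.01 on the Cis arrays and 10.91 and 10.93 on the TM arrays, a difference of 0.11 ± 0.091 (SE, adjusted p = 0.421). Neither gene passed the test at 24 h. SLC31A2, a vesicular relative of SLC31A1, was called at 0.62 ± 0.18 (adjusted p = 0.0112), a call that was lost without any of 4 arrays: 0.56 without Cis A, 0.58 without Cis C, 0.62 (adjusted p = 0.0698) without TM A and 0.62 (adjusted p = 0.07) without TM B.

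The chaperones CCS, ATOX1 and SCO1, which carry copper inside the cell, were higher in Cis cells. CCS loads copper into the superoxide dismutase SOD1 and was at 6.71, 6.57 and 6.598 on the Cis arrays and 5.68 and 5.61 on the TM arrays, a difference of 0.98 ± 0.20 (SE, adjusted p = 8.03e-04). ATOX1 hands copper to ATP7A and ATP7B and was at 9.69, 9.65 and 9.49 on the Cis arrays and 8.87 and 8.96 on the TM arrays, a difference of 0.69 ± 0.15 (SE, adjusted p = 0.00121). SCO1, which delivers copper to cytochrome c oxidase, differed by 0.64 ± 0.15, and without TM array A by 0.56 (adjusted p = 0.0559), which was no longer called. In CCS and ATOX1 all 3 Cis arrays lay at least 0.5 log2 units above both TM arrays. On the lower side were MEMO1, a copper-binding protein that regulates cell motility, at 8.22, 8.64 and 8.55 on the Cis arrays and 9.78 and 9.79 on the TM arrays (-1.32 ± 0.11 SE, adjusted p = 3.55e-08), and COMMD1, which binds ATP7A and ATP7B and takes part in copper export, with a difference of -0.92 ± 0.14.

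Metallothioneins, small cysteine-rich proteins that bind zinc, copper and cadmium, were listed with the metal-sensing transcription factor MTF1 and zinc transporters. Of 14 measured genes, 3 were called higher and 0 lower in Cis cells, with a median difference of 0.35 beside 0.065 over all genes, and 1 was called lower once arrays were centred. MT1X was at 9.58, 9.42 and 9.45 on Cis arrays A, B and C, against 8.19 and 8.34 on TM arrays A and B, a difference of 1.22 ± 0.11 (SE, adjusted p = 7.20e-08), 2.33-fold. MT1F was at 7.66, 7.08 and 7.28 on the Cis arrays and 6.30 and 6.56 on the TM arrays, a difference of 0.91 ± 0.23, and without TM array A it was 0.78 (adjusted p = 0.0718), not called. SLC30A1, the zinc exporter of the plasma membrane, was at 7.84, 8.12 and 8.11 on the Cis arrays and 7.34 and 7.33 on the TM arrays, a difference of 0.69 ± 0.13 (SE, adjusted p = 3.96e-04). MT2A, the most abundant metallothionein here, was at 12.60, 12.39 and 12.35 on the Cis arrays and 12.23 and 12.29 on the TM arrays, a difference of 0.19 ± 0.095 (SE, adjusted p = 0.174) that did not pass the test, and MTF1 differed by 0.088 ± 0.14. Metallothioneins are near-identical copies of each other, so signal may be shared between them on an array.

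Transcription of metallothionein genes is known to depend on MTF1, which binds the metal response element with the core TGCNCNC. The 250 bases before the start of MT1X and of MT2A are shown 5′ to 3′ to set their elements side by side. MT1X was called higher, as were MT1F and SLC30A1, and MT2A did not pass the test. Each match of the core on either strand is in capitals (RefSeq, GRCh38.p14, MT1X at chr16:56682220-56682469 and MT2A at chr16:56608334-56608583, both on the + strand).
MT1X: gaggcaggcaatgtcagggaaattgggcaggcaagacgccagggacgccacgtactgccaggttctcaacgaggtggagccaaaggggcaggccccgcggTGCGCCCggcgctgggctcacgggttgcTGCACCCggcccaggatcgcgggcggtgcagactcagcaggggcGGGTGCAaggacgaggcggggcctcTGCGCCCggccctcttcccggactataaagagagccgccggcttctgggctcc
MT2A: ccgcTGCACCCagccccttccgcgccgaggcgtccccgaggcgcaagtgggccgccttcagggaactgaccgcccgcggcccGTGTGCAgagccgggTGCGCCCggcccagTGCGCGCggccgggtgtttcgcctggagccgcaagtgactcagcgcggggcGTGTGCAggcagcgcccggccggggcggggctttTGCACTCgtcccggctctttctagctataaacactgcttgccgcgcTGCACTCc
The window of MT1X held 4 matches, 3 on the strand of the gene and 1 on the other, and that of MT2A held 7, 5 on the strand of the gene and 2 on the other. Of the 14 genes, 9 had a promoter in the table, and 7 of their 11 promoters held a match. Among 35116 promoters of all genes, 49.1% held at least 1 match and 1.77% held 4 or more.

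**Figure D2:**
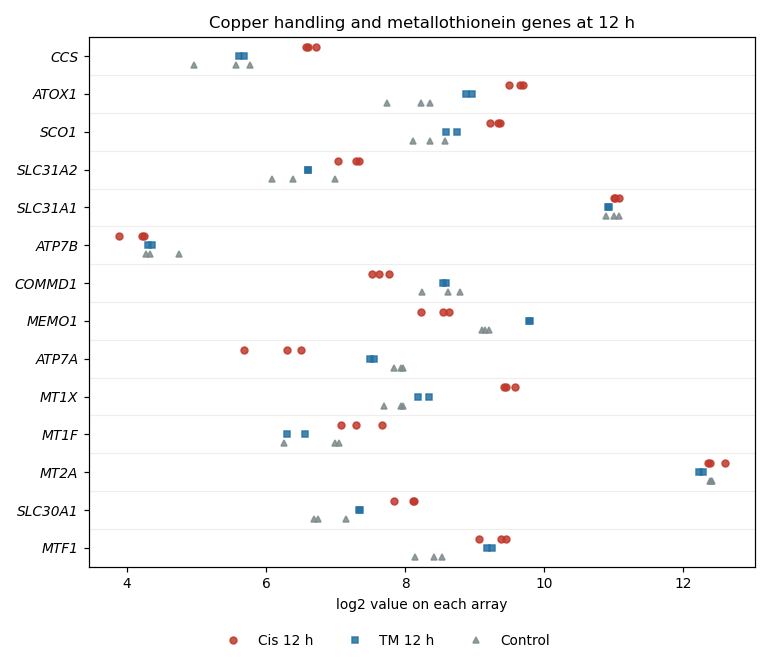
Log2 level on each Cis and TM array at 12 h and each Control array for genes of copper handling and metallothioneins. Each point is 1 array. ATP7A, MEMO1 and COMMD1 are lower on the Cis arrays, CCS, ATOX1 and MT1X are higher, and SLC31A1 and MT2A lie close together (differences 0.11 and 0.19).

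Enzymes that use copper, the subunits and assembly factors of cytochrome c oxidase and the genes of iron handling had few called members. Over all genes 6.9% were higher and 10.3% lower. Among 18 copper enzymes 2 were higher and 0 lower (median 0.25), and with each of the 3 other scalings 1 was lower. The amine oxidase AOC2 was at 6.56, 6.94 and 7.08 on the Cis arrays and 5.21 and 5.32 on the TM arrays (1.59 ± 0.17 SE, adjusted p = 5.19e-07) and LOX, the secreted lysyl oxidase that crosslinks collagen, at 6.47, 7.53 and 7.23 on the Cis arrays and 5.98 and 6.13 on the TM arrays (1.02 ± 0.24 SE, adjusted p = 0.00273). SOD1 was at 11.39, 11.35 and 11.36 on the Cis arrays and 11.09 and 10.93 on the TM arrays, a difference of 0.36 ± 0.087 (SE, adjusted p = 0.00364) under the fold minimum. Among 26 cytochrome c oxidase genes, 3 were higher, including the assembly factor COA5 (0.98 ± 0.19) and the subunit COX8A (0.70 ± 0.15), and 1 was lower, LRPPRC, which stabilises mitochondrial mRNAs (-0.79 ± 0.10), and without Cis array A 4 were higher. Among 16 iron genes 2 were higher, with the iron-sulfur scaffold ISCU at 0.73 ± 0.094, and 1 was lower, the transferrin receptor TFRC at -0.84 ± 0.12.

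Genes listed with TXNIP differed in where Control lay. TXNIP itself, the thioredoxin-binding protein that rises with glucose-derived signals through the factor MondoA, was at 11.18, 11.30 and 11.19 on Cis arrays A, B and C, against 8.76 and 8.85 on TM arrays A and B, a difference of 2.41 ± 0.10 (SE, adjusted p = 3.13e-11), 5.33-fold. Its Control mean was 10.71, with a Cis mean minus Control of 0.51 and a TM mean minus Control of -1.90. Its relative ARRDC4, an arrestin-like protein, was at 7.07, 7.38 and 7.52 on the Cis arrays and 4.97 and 4.63 on the TM arrays with a Control mean of 6.50 (2.52 ± 0.20 SE, adjusted p = 1.57e-08), a Cis mean minus Control of 0.82 and a TM mean minus Control of -1.70. ARRDC3 was also higher in Cis cells (2.12 ± 0.12), with a Control mean of 9.25 nearer the TM arrays. HK2, the hexokinase that starts glycolysis, went the other way at 7.36, 7.19 and 7.07 on the Cis arrays and 8.78 and 8.68 on the TM arrays (-1.52 ± 0.17 SE, adjusted p = 7.53e-07), with a Control mean of 7.98 about midway between the groups. In all, 4 of 12 measured genes of this list were higher and 1 was lower, and MLXIP, which encodes MondoA, differed by -0.12 ± 0.12 (adjusted p = 0.52).

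CYP1B1, a cytochrome P450 driven by the aryl hydrocarbon receptor, had a Control level near the Cis arrays, as TXNIP had. It was at 8.33, 8.71 and 8.63 on the Cis arrays and 7.02 and 6.64 on the TM arrays, a difference of 1.73 ± 0.15 (SE, adjusted p = 5.37e-08), with a Control mean of 8.81 and a TM mean minus Control of -1.98. CYP1A1, the receptor's best known target, differed by 0.79 ± 0.23 at a lower level, and its call was lost without Cis array B (0.65, adjusted p = 0.056), TM array A (0.83, adjusted p = 0.0573) or TM array B (0.75, adjusted p = 0.0888). The receptor gene AHR differed by -0.26 ± 0.11 (adjusted p = 0.096), and 2 of 11 genes of the list were higher and 0 lower, with and without Cis array A.

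TM cells also lay above Control in genes that did not separate Cis cells from Control by as much. SLC2A1, the main glucose transporter, was at 8.22, 8.69 and 8.13 on the Cis arrays and 9.86 and 9.75 on the TM arrays with a Control mean of 8.42 (-1.46 ± 0.16 SE, adjusted p = 8.41e-07). BCL2L1, which blocks apoptosis, was at 8.06, 8.60 and 8.10 on the Cis arrays and 9.35 and 9.24 on the TM arrays with a Control mean of 8.06 (-1.04 ± 0.21 SE, adjusted p = 6.89e-04). Both Control means lay inside or near the range of the Cis arrays.

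MDA-MB-231 carries a mutant p53, the factor that induces the best known genes of the damage response. Of 35 measured targets of p53, 12 were higher and 3 lower in Cis cells (median 0.29), with the same counts without Cis array A. CDKN1A, the inhibitor of cyclin-dependent kinases, was at 7.89, 8.29 and 7.83 on the Cis arrays and 6.61 and 6.47 on the TM arrays, a difference of 1.46 ± 0.16 (SE, adjusted p = 6.12e-07). GADD45A, a stress sensor of growth arrest, was at 8.41, 8.29 and 8.52 on the Cis arrays and 6.92 and 6.82 on the TM arrays (1.53 ± 0.11 SE, adjusted p = 6.54e-09), and PMAIP1, a BH3-only activator of apoptosis also named NOXA, was at 10.51, 10.49 and 10.59 on the Cis arrays and 9.08 and 8.92 on the TM arrays (1.53 ± 0.12 SE, adjusted p = 1.00e-08). These Cis arrays lay more than 1 log2 unit above the TM arrays in each gene. The polo-like kinase PLK2 differed by 1.19 ± 0.10. MDM2, the ubiquitin ligase of p53 and its direct target, differed by -0.50 (adjusted p = 0.0146), under the fold minimum, and was past it at -0.59 with centred arrays. ASCC3, a helicase and a long gene that is linked to transcription after damage, was lower (-1.75 ± 0.13).

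Repair of DNA crosslinks through the Fanconi anaemia proteins and homologous recombination is a central answer of a cell to cisplatin lesions. Of 30 measured genes of these pathways, 0 were higher and 14 lower in Cis cells, with a median difference of -0.52 beside 0.065 over all genes, and 11 were lower without Cis array A. BRIP1, a helicase that works with BRCA1, was at 8.07, 8.46 and 8.35 on Cis arrays A, B and C, against 9.80 and 9.75 on TM arrays A and B, a difference of -1.48 ± 0.13 (SE, adjusted p = 5.37e-08). BLM, the Bloom syndrome helicase, was at 8.12, 8.75 and 8.49 on the Cis arrays and 9.65 and 9.59 on the TM arrays (-1.17 ± 0.14 SE, adjusted p = 1.52e-06), and MRE11, the nuclease that starts end resection, was at 6.30, 6.90 and 6.80 on the Cis arrays and 7.92 and 7.76 on the TM arrays (-1.17 ± 0.14 SE, adjusted p = 1.83e-06). FANCI, a partner of the monoubiquitinated Fanconi complex, was at 8.29, 8.85 and 8.73 on the Cis arrays and 9.63 and 9.56 on the TM arrays (-0.97 ± 0.12 SE, adjusted p = 5.39e-06). In these genes all TM arrays lay above all Cis arrays by at least 0.7 log2 units. TM means were above the Control means (9.32, 9.02, 7.54 and 9.39) by 0.46, 0.60, 0.29 and 0.20, past 1.5-fold only in BLM. BRCA1, chosen after its values were seen, was at 7.23, 7.86 and 7.67 on the Cis arrays and 8.51 and 8.56 on the TM arrays (-0.95 ± 0.17 SE, adjusted p = 2.46e-04).

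The other repair pathways were mixed or partly lower. Among 40 genes of excision and mismatch repair, 4 were higher and 3 lower (median -0.057), and without Cis array A 4 and 2. These shares lay near those over all genes, 6.9% higher and 10.3% lower. The damage sensors of nucleotide excision repair were higher, XPC at 6.39, 6.73 and 6.68 on the Cis arrays and 5.69 and 5.86 on the TM arrays (0.83 ± 0.16 SE, adjusted p = 3.37e-04) and DDB2 at 6.89, 7.19 and 7.21 on the Cis arrays and 6.32 and 6.48 on the TM arrays (0.70 ± 0.15 SE, adjusted p = 0.00115), while the mismatch repair gene MSH3 was lower (-1.40 ± 0.19 SE, adjusted p = 1.06e-05). Among 16 genes of translesion synthesis, which lets polymerases bypass lesions, 2 were higher and 6 lower (median -0.28), and with centred arrays 0 were higher. Without Cis array A the counts were the same, and the median was -0.071. RAD18, the ubiquitin ligase that recruits bypass polymerases to PCNA, was at 8.03, 8.45 and 8.55 on the Cis arrays and 9.71 and 9.68 on the TM arrays (-1.35 ± 0.12 SE, adjusted p = 5.37e-08). REV3L, the catalytic subunit of polymerase zeta, differed by -1.44 ± 0.20 and POLQ, the polymerase of end joining by microhomology, by -1.32 ± 0.23. In REV3L and POLQ Cis array A lay about 0.8 to 1 log2 unit below Cis arrays B and C, and both calls were kept without it.

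Checkpoint and G1/S genes went both ways, 6 higher and 8 lower of 39 (median 0.029), and without Cis array A 6 and 6 (median 0.060). Over all genes 6.9% were higher and 10.3% lower. GADD45B, a stress-induced relative of GADD45A, was at 9.15, 9.01 and 9.08 on the Cis arrays and 7.23 and 7.16 on the TM arrays, a difference of 1.88 ± 0.12 (SE, adjusted p = 9.35e-10). CCNE1, the cyclin that drives entry into S phase, was at 8.42, 8.58 and 8.51 on the Cis arrays and 7.05 and 7.10 on the TM arrays (1.43 ± 0.16 SE, adjusted p = 8.45e-07). CDK6, a kinase of G1, was at 6.205, 6.84 and 6.54 on the Cis arrays and 8.77 and 8.59 on the TM arrays, a difference of -2.15 ± 0.16 (SE, adjusted p = 7.96e-09). The retinoblastoma gene RB1 (-1.35 ± 0.15) and ATM, the kinase that signals double-strand breaks (-0.82 ± 0.13), were lower, and none of these 5 genes had overlapping arrays.

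DNA replication genes were called only as lower with the deposited values, 10 of 43 and 0 higher (median -0.14). The lower count was 8 without Cis array A, 17 with centred arrays, and 12 with 2 higher after cyclic loess. The list's median levels of 8.35 in Cis and 8.77 in TM cells lay in the range of the highest bin of mean level. In that bin 1014 of 4604 genes were called lower, a share close to that of this list. The primase and polymerase alpha complex led the replication genes. POLA1, its catalytic subunit, was at 7.22, 7.68 and 7.69 on Cis arrays A, B and C, against 9.56 and 9.52 on TM arrays A and B, a difference of -2.01 ± 0.13 (SE, adjusted p = 1.22e-09), 4.04-fold. PRIM2, the large primase subunit, was at 5.67, 6.53 and 6.34 on the Cis arrays and 8.46 and 8.52 on the TM arrays, a difference of -2.31 ± 0.17 (SE, adjusted p = 5.13e-09), 4.97-fold. RFC3, part of the clamp loader, differed by -0.93 ± 0.098 and ORC3, part of the origin recognition complex, by -1.15 ± 0.16. The replicative helicase subunit MCM7 was at 10.07, 10.29 and 10.05 on the Cis arrays and 10.17 and 10.23 on the TM arrays (-0.057 ± 0.15 SE, adjusted p = 0.839), above its Control mean of 8.84 in both groups.

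Genes of mitosis and the kinetochore were lower in Cis cells in 17 of 44 cases and higher in 0, with a median of -0.41, and 15 were lower without Cis array A. After cyclic loess 1 was higher. BUB1B, a kinase of the spindle checkpoint, was at 8.09, 8.54 and 8.34 on the Cis arrays and 9.74 and 9.58 on the TM arrays (-1.34 ± 0.12 SE, adjusted p = 8.90e-08). KIF4A, a chromosome-bound kinesin, was at 7.79, 8.46 and 8.26 on the Cis arrays and 9.56 and 9.56 on the TM arrays (-1.39 ± 0.16 SE, adjusted p = 1.19e-06), and the kinetochore protein CENPF was at 8.83, 9.38 and 9.23 on the Cis arrays and 10.18 and 10.22 on the TM arrays (-1.05 ± 0.13 SE, adjusted p = 2.38e-06). The cytokinesis scaffold ANLN was at 10.04, 10.29 and 10.30 on the Cis arrays and 11.15 and 11.10 on the TM arrays (-0.91 ± 0.10 SE, adjusted p = 8.12e-07). In these 4 genes the TM arrays lay close to the Control means (9.83, 9.58, 10.43 and 11.23), and all Cis arrays lay below both TM arrays by more than 0.7 log2 units.

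**Figure D3:**
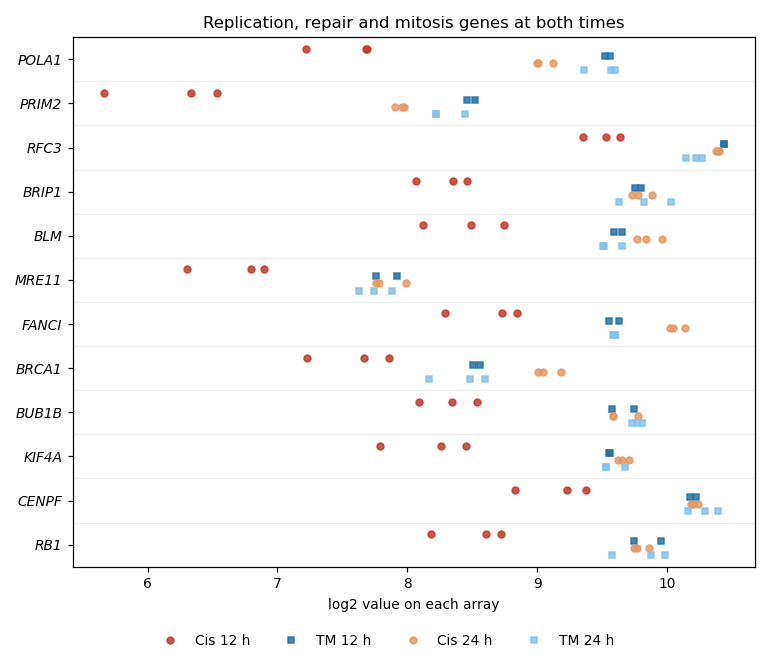
Log2 value on each Cis and TM array at 12 h and at 24 h for 12 genes of replication, repair and mitosis. Each point is 1 array, and the Cis arrays at 12 h lie below all others in each gene, as in POLA1 (difference -2.01 at 12 h and -0.47 at 24 h) and BUB1B (-1.34 and -0.12).

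Both death-promoting and protective genes of the BCL2 family differed, 6 higher and 3 lower of 32 with the caspases (median 0.011). Without Cis array A the counts were 5 and 3 (median 0.020), and over all genes the shares were 6.9% and 10.3%. BCL2A1, a protective member induced by NF-kB, was at 7.61, 7.88 and 7.95 on the Cis arrays and 5.79 and 5.72 on the TM arrays, a difference of 2.06 ± 0.22 (SE, adjusted p = 6.10e-07). BCL2L11, the BH3-only killer also named BIM, was at 6.94, 7.46 and 7.36 on the Cis arrays and 5.83 and 5.54 on the TM arrays (1.57 ± 0.17 SE, adjusted p = 5.99e-07). TNFRSF10D, a decoy receptor for TRAIL, was at 10.91, 10.96 and 10.89 on the Cis arrays and 9.69 and 9.74 on the TM arrays (1.21 ± 0.13 SE, adjusted p = 3.82e-07). In each gene the Cis arrays lay more than 1 log2 unit above the TM arrays.

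Targets of NF-kB and cytokine genes were higher in 11 and lower in 2 of 34 cases (median 0.37), and without Cis array A in 9 and 1. Beside CXCL8, described above, IL6 was at 6.34, 6.57 and 6.197 on the Cis arrays and 5.39 and 5.19 on the TM arrays (1.08 ± 0.20 SE, adjusted p = 2.67e-04) and IL24, a cytokine of the IL10 family, at 5.80, 5.55 and 5.45 on the Cis arrays and 3.94 and 4.38 on the TM arrays (1.44 ± 0.19 SE, adjusted p = 5.54e-06), each at low signal with Control means of 5.78 and 4.70 between the groups. NFKBIA, which encodes an inhibitor of NF-kB (0.69 ± 0.12), and its relative NFKBIZ (0.98 ± 0.14), both induced by NF-kB, were higher. NFKB1, which encodes the p105 precursor of a subunit, was lower, at 7.18, 7.75 and 7.59 on the Cis arrays and 8.57 and 8.62 on the TM arrays (-1.09 ± 0.14 SE, adjusted p = 6.38e-06).

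Interferon-stimulated genes were higher in 8 and lower in 4 of 38 cases (median 0.18), and without Cis array A in 9 and 2. Among all genes 6.9% were higher and 10.3% lower, the latter near the share of this list. IFI6 was at 7.38, 7.19 and 7.32 on the Cis arrays and 6.13 and 6.31 on the TM arrays (1.08 ± 0.14 SE, adjusted p = 4.34e-06). ISG15, the ubiquitin-like modifier, differed by 0.84 ± 0.17 and the transcription factor IRF1 by 1.18 ± 0.21. The sensors of double-stranded RNA EIF2AK2 (-0.81 ± 0.12) and RIGI (-0.97 ± 0.16) were lower.

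Immediate early genes and the phosphatases of MAP kinases were higher in 14 and lower in 5 of 46 cases (median 0.32), with the same counts without Cis array A. JUN, a subunit of AP-1, was at 8.28, 8.59 and 8.25 on the Cis arrays and 7.20 and 7.19 on the TM arrays, a difference of 1.18 ± 0.13 (SE, adjusted p = 8.45e-07). ATF3, a stress-induced transcription factor, was at 6.68, 6.76 and 6.72 on the Cis arrays and 5.48 and 5.33 on the TM arrays (1.31 ± 0.11 SE, adjusted p = 3.32e-08), and HBEGF, a ligand of the EGF receptor, was at 10.73, 10.83 and 10.66 on the Cis arrays and 9.55 and 9.54 on the TM arrays (1.19 ± 0.11 SE, adjusted p = 1.05e-07). The Cis arrays lay within 0.4 log2 units of each other and 1 log2 unit or more above both TM arrays. BTG1, an antiproliferative gene, differed by 1.32 ± 0.10. MYC was lower (8.47, 8.54 and 8.49 on the Cis arrays and 9.44 and 9.31 on the TM arrays), a difference of -0.88 ± 0.14 (SE, adjusted p = 6.15e-05), as was SPRED2, an inhibitor of Ras signalling (-1.20 ± 0.13). DUSP1, a MAP kinase phosphatase, differed by 0.45 ± 0.14, under the fold minimum, and lay above its Control mean of 7.30 in both groups.

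Among the ID, SNAIL and other factors of the epithelial to mesenchymal transition, 8 of 25 were higher and 5 lower (median 0.34), and 8 and 4 without Cis array A (median 0.21). SNAI1, which represses E-cadherin, was at 7.42, 7.64 and 7.27 on Cis arrays A, B and C, against 5.03 and 4.85 on TM arrays A and B, a difference of 2.50 ± 0.20 (SE, adjusted p = 1.16e-08), 5.66-fold. Its relative SNAI2 was at 8.86, 8.97 and 8.88 on the Cis arrays and 7.92 and 7.99 on the TM arrays (0.95 ± 0.11 SE, adjusted p = 1.28e-06). ZEB1, a repressor of the same class, was lower at 7.64, 7.98 and 7.93 on the Cis arrays and 9.08 and 9.02 on the TM arrays (-1.20 ± 0.11 SE, adjusted p = 6.46e-08), and so was the ligand TGFB2 (-1.63 ± 0.13). The members of 1 functional class therefore lay on both sides. ZEB1 and CAV1 (-0.98 ± 0.11) were also the 2 of the line's 10 markers that were lower, and 3 of 9 luminal markers, FOXA1 (0.64 ± 0.14) and KRT19 (0.75 ± 0.17) among them, were higher, 1 of them with centred arrays and 2 without Cis array A. The mean of the luminal markers was 5.86 to 5.99 on the Cis arrays and 5.74 to 5.75 on the TM arrays. ESR1, the estrogen receptor, was at 4.07, 4.20 and 3.90 on the Cis arrays and 3.998 and 4.22 on the TM arrays.

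Genes of NRF2, glutathione and thioredoxin were higher in 14 and lower in 3 of 43 cases (median 0.29), and without Cis array A in 14 and 4. GSTM3, a glutathione transferase, was at 8.64, 8.97 and 8.89 on the Cis arrays and 7.47 and 7.46 on the TM arrays (1.37 ± 0.12 SE, adjusted p = 3.36e-08), and SRXN1, which repairs oxidised peroxiredoxins, was at 8.95, 9.07 and 8.98 on the Cis arrays and 8.04 and 8.01 on the TM arrays (0.98 ± 0.094 SE, adjusted p = 1.45e-07). GPX1, the selenium-dependent glutathione peroxidase, was at 8.93, 9.14 and 8.97 on the Cis arrays and 7.87 and 7.76 on the TM arrays (1.20 ± 0.15 SE, adjusted p = 4.48e-06), with both groups above the Control mean of 6.17. On the lower side were SLC7A11, the cystine importer, at 9.35, 9.69 and 9.70 on the Cis arrays and 10.74 and 10.58 on the TM arrays (-1.08 ± 0.12 SE, adjusted p = 5.74e-07), and ABCC1, a drug exporter that carries glutathione conjugates, at 5.86, 5.89 and 5.62 on the Cis arrays and 7.52 and 7.32 on the TM arrays (-1.63 ± 0.15 SE, adjusted p = 1.22e-07).

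The stress programmes of translation, oxygen and protein folding had called genes in both directions, beside 6.9% higher and 10.3% lower among all genes. Integrated stress response genes were higher in 6 and lower in 4 of 42 cases (median -0.00062), and without Cis array A in 7 and 3 (median 0.013), with DDIT3, the factor CHOP, at 7.46, 7.91 and 7.76 on the Cis arrays and 6.15 and 6.10 on the TM arrays (1.59 ± 0.16 SE, adjusted p = 3.23e-07) and DDIT4, an inhibitor of mTOR signalling, at 0.70 ± 0.14. Hypoxia and angiogenesis genes were higher in 6 and lower in 7 of 46 cases (median 0.016), and without Cis array A in 6 and 6 (median 0.0013). ALDOC, a glycolytic aldolase, was at 10.53, 10.76 and 10.61 on the Cis arrays and 8.48 and 8.42 on the TM arrays, a difference of 2.18 ± 0.14 (SE, adjusted p = 1.16e-09). ANKRD37, a target of the hypoxia factor, differed by 1.43 ± 0.14, whereas VEGFA differed by -0.24 ± 0.14 (adjusted p = 0.22). Heat shock genes were higher in 5 and lower in 2 of 36 cases (median -0.027), with HSPA2 (1.55 ± 0.16) and HSPA6 (1.41 ± 0.21) higher and the mitochondrial chaperonin HSPE1 lower (-0.69 ± 0.12), and 0 were lower after quantile or cyclic loess normalization. Without Cis array A 5 were higher and 1 lower (median -0.0065).

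Of 44 proteasome genes 7 were higher and 1 lower (median 0.065, the same as over all genes), and 8 and 1 without Cis array A. PSMB9, the inducible catalytic subunit, was at 7.45, 7.69 and 7.63 on the Cis arrays and 6.28 and 6.14 on the TM arrays (1.39 ± 0.15 SE, adjusted p = 4.53e-07), PSMC3, an ATPase of the regulatory particle, differed by 0.87 ± 0.14, and the activator PSME4 was lower at 8.09, 8.51 and 8.43 on the Cis arrays and 9.73 and 9.67 on the TM arrays (-1.36 ± 0.11 SE, adjusted p = 2.05e-08). Among 22 sterol and fatty acid genes 3 were higher and 2 lower. ELOVL6, an elongase of fatty acids, was at 6.17, 6.76 and 6.64 on the Cis arrays and 8.45 and 8.32 on the TM arrays (-1.86 ± 0.17 SE, adjusted p = 7.70e-08) and ACACA, the carboxylase that commits carbon to fatty acids, differed by -1.68 ± 0.16.

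Cisplatin lesions stall RNA polymerases, and subunits of the polymerases and their general factors were higher in 5 and lower in 6 of 47 cases (median 0.19), beside 6.9% and 10.3% of all genes. Which side held more depended on the processing, since the counts were 7 higher and 4 lower without Cis array A, 9 and 5 with quantile normalization and 10 and 5 after cyclic loess. POLR2A, the large catalytic subunit of RNA polymerase II, was at 10.36, 10.55 and 10.39 on Cis arrays A, B and C, against 9.52 and 9.42 on TM arrays A and B, a difference of 0.96 ± 0.11 (SE, adjusted p = 1.58e-06), and both groups lay above the Control mean of 8.54. TAF12, a subunit of TFIID, differed by 1.36 ± 0.21. GTF2F2, a subunit of TFIIF, differed by -1.60 ± 0.11 (SE, adjusted p = 2.25e-09), and POLR1B, the second largest subunit of RNA polymerase I, differed by -1.25 ± 0.15.

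Genes of ribosome biogenesis were lower in 10 and higher in 1 of 54 cases (median -0.24). Only 5 were lower and 2 higher without Cis array A, 5 lower after quantile normalization, and 13 with centred arrays. The list's median levels were 9.30 in Cis and 9.46 in TM cells, in the range of the highest bin of mean level. In that bin 1014 of 4604 genes were called lower. The helicase DDX10 was at 7.78, 7.94 and 7.61 on the Cis arrays and 9.89 and 9.87 on the TM arrays (-2.11 ± 0.11 SE, adjusted p = 1.86e-10), and UTP20, a component of the small subunit processome, differed by -1.68 ± 0.13. The gene that was higher was WDR74, at 9.28, 9.61 and 9.44 on the Cis arrays and 7.51 and 7.52 on the TM arrays (1.93 ± 0.17 SE, adjusted p = 3.63e-08). A copy of the U2 RNA gene lies in the 5′ end of WDR74, so its array signal may include that RNA.

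Among 75 histone genes, 19 were higher, 2 were lower and 54 were not called (median 0.21). Without Cis array A 20 were higher and 2 lower, and the median was 0.116, and it was 0.115 with centred arrays. H2BC12 was at 10.11, 10.26 and 9.97 on the Cis arrays and 7.95 and 8.10 on the TM arrays, a difference of 2.09 ± 0.15 (SE, adjusted p = 5.45e-09), and H3C1 at 6.80, 7.21 and 6.99 on the Cis arrays and 5.48 and 5.55 on the TM arrays (1.49 ± 0.23 SE, adjusted p = 4.14e-05). The linker histone H1-4 was lower at 8.09, 8.34 and 8.15 on the Cis arrays and 9.19 and 9.25 on the TM arrays (-1.03 ± 0.16 SE, adjusted p = 6.00e-05). Many histone genes are near-identical, and their probes may share signal.

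Small RNA genes split by class. Small nucleolar RNAs, which guide the modification of ribosomal RNA, were higher in 31 and lower in 2 of 192 cases (median 0.10), and without Cis array A in 39 and 0. SNORD43 was at 9.94, 9.67 and 9.45 on the Cis arrays and 8.12 and 7.87 on the TM arrays (1.69 ± 0.19 SE, adjusted p = 9.29e-07), SNORD95 differed by 1.33 ± 0.18 and SNORD45A by 1.34 ± 0.23. These RNAs lie in introns of host genes, whose precursor RNA the same probes can read. Small nuclear RNAs of the spliceosome were higher in 3 and lower in 9 of 28 cases (median -0.084), and without Cis array A in 2 and 7 (median -0.20). RNU6ATAC, of the minor spliceosome, was at 7.23, 7.27 and 7.35 on the Cis arrays and 6.18 and 5.62 on the TM arrays (1.39 ± 0.21 SE, adjusted p = 3.49e-05), and RNVU1-6, a variant of U1, was at 5.58, 5.99 and 6.11 on the Cis arrays and 8.21 and 7.48 on the TM arrays with a Control mean of 4.59 (-1.95 ± 0.22 SE, adjusted p = 1.04e-06). U1 variants are near-identical copies, so the value of a single copy is uncertain.

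Among 173 microRNA hairpin genes, 5 were higher and 0 lower in Cis cells, smaller shares than the 6.9% and 10.3% over all genes. The median difference was 0.060 beside 0.065 over all genes, with a range from -0.34 to 1.82. The array reads RNA of the hairpin and its precursor, not the mature microRNA. All 5 and the host gene MIR22HG were chosen after their values were seen. MIR21 was at 5.62, 6.71 and 6.70 on the Cis arrays and 4.68 and 4.36 on the TM arrays, a difference of 1.82 ± 0.27 (SE, adjusted p = 3.36e-05). MIR222 was at 5.84, 5.58 and 5.88 on the Cis arrays and 4.34 and 3.84 on the TM arrays (1.68 ± 0.28 SE, adjusted p = 1.05e-04), and MIRLET7G at 5.30, 5.28 and 5.73 on the Cis arrays and 4.44 and 3.94 on the TM arrays (1.25 ± 0.18 SE, adjusted p = 1.89e-05). On Cis array A, MIR21 lay about 1 log2 unit below Cis arrays B and C but still above both TM arrays. The mature products of these 3 hairpins are shown because a microRNA finds its targets through bases 2 to 8, the seed, given in capitals (RefSeq, GRCh38.p14, where 164 of the 173 genes were found by name).
hsa-miR-21-5p: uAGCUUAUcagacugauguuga
hsa-miR-222-3p: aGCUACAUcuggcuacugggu
hsa-let-7g-5p: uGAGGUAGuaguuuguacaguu
They lie at chr17:59841273-59841294 on the + strand, chrX:45747036-45747056 on the - strand and chr3:52268336-52268357 on the - strand, and no seed was shared. MIR425 differed by 0.97 ± 0.22 and MIR25 by 0.60 ± 0.20, a call lost without Cis array A (0.54, adjusted p = 0.0891), Cis array C (0.60, adjusted p = 0.0578) or TM array A (0.35, adjusted p = 0.393). MIR22HG, the host gene of a microRNA, was at 7.18, 7.69 and 7.33 on the Cis arrays and 4.98 and 5.13 on the TM arrays, a difference of 2.34 ± 0.17 (SE, adjusted p = 4.44e-09).

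Of 67 measured very long genes, 31 were lower and 0 higher in Cis cells (median -0.49), and 28 were lower without Cis array A. CDKAL1, which modifies transfer RNA, was at 5.13, 5.64 and 5.76 on the Cis arrays and 7.92 and 7.73 on the TM arrays (-2.32 ± 0.15 SE, adjusted p = 9.35e-10). ERC1, a scaffold of the cell cortex, was at 6.50, 6.69 and 6.83 on the Cis arrays and 8.89 and 8.82 on the TM arrays (-2.18 ± 0.15 SE, adjusted p = 1.79e-09), and NEGR1, a neuronal adhesion protein, was at 5.30, 5.67 and 5.67 on the Cis arrays and 7.61 and 7.55 on the TM arrays (-2.03 ± 0.13 SE, adjusted p = 1.52e-09). The Control means of 7.07, 8.76 and 7.18 lay above all Cis arrays. Zinc finger genes of the ZNF family were higher in 46 and lower in 26 of 494 cases (median 0.097), without Cis array A in 65 and 17, and with centred arrays in 37 and 40, so the sign of their split turned with the scaling.

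**Figure D4:**
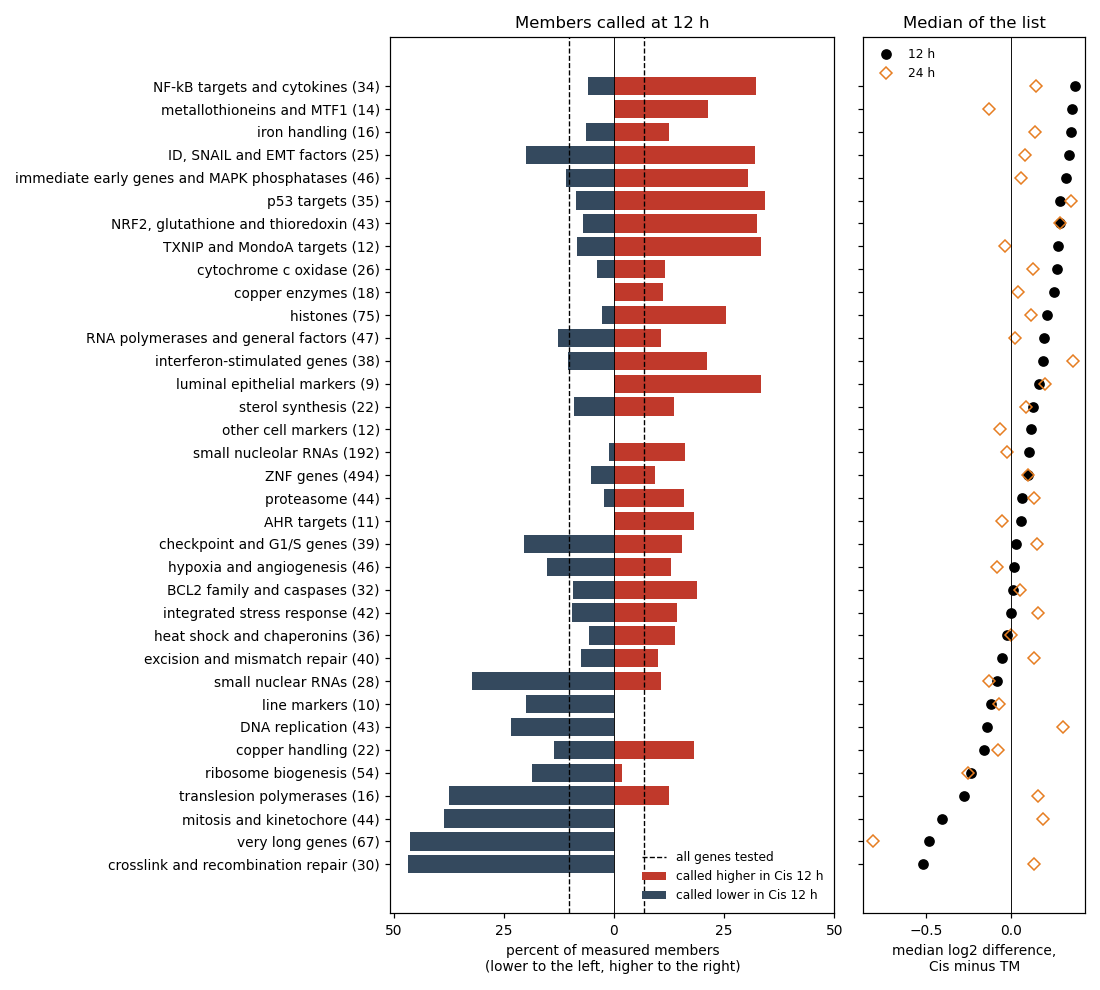
Left, percent of each list's measured genes (number in parentheses) called higher (red) or lower (blue) in Cis than in TM cells at 12 h, with dashed lines at the shares over all genes (6.9% higher and 10.3% lower), and right, the median log2 difference of each list at 12 h and 24 h. Crosslink repair (median -0.52 at 12 h and 0.13 at 24 h) lies on opposite sides of 0 at the 2 times, and very long genes (-0.49 and -0.81) lie below 0 at both.

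Among the other genes that the study names, CD24 and ITGA6 went opposite ways. The study used their proteins to mark stem-like cells of mouse allograft tumours, whereas the values here are RNA of a human cell line. CD24 had a low signal at 3.83, 4.61 and 4.27 on the Cis arrays and 2.78 and 2.59 on the TM arrays, a difference of 1.55 ± 0.21 (SE, adjusted p = 1.00e-05), and ITGA6 was at 8.48, 8.94 and 8.96 on the Cis arrays and 10.13 and 10.03 on the TM arrays, a difference of -1.29 ± 0.12 (SE, adjusted p = 1.62e-07). GSTP1, a glutathione transferase, was called at 0.62 ± 0.16, and was 0.52 and not called without Cis array B. H2AX, the histone variant that marks breaks, differed by 0.51 ± 0.11 (SE, adjusted p = 9.53e-04), under the fold minimum, and passed it at 0.63 with quantile normalization. STAT3 (-0.35 ± 0.15), TP53BP1 (-0.36 ± 0.12), CDCA5 (0.22 ± 0.24), MKI67 (-0.13 ± 0.099) and the drug exporter ABCB1 (0.063 ± 0.14) were not called. MKI67 was above 9.5 on all 5 arrays, and ABCB1 below 3.7.

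Fewer genes separated the drugs at 24 h, most of all on the lower side. Cis and TM arrays at 24 h, 3 of each, gave 979 genes (5.32%) higher and 595 (3.23%) lower in Cis cells. Of the genes called at 12 h, 458 higher ones were also called higher at 24 h, 36.03% of those at 12 h and 46.8% of those at 24 h. Of the lower ones 518 were called at both times, 27.4% of those at 12 h and 87.1% of those at 24 h. In 15 genes the calls were opposite. Tested as the 12 h difference minus the 24 h difference, which rests on separate arrays, 396 genes (2.15%) were more positive at 12 h and 1428 (7.75%) more negative. Without Cis array A at 12 h these counts fell to 366 and 1003. They also fell without either TM array at 12 h, which leaves a single TM array at that time.

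Crosslink repair, replication and mitosis carried a difference between the times in 1 direction. Of 30, 43 and 44 measured genes, 16, 16 and 24 were more negative at 12 h and 0 were more positive, beside 7.75% and 2.15% of all genes. These list counts were not run without Cis array A. At 24 h the median differences of the lists were 0.13, 0.30 and 0.18. PRIM2 differed by -0.35 at 24 h, a difference between the times of -1.97 ± 0.23 (SE, adjusted p = 5.39e-05), and POLA1 by -0.47 (-1.55 ± 0.18 SE, adjusted p = 5.39e-05). BRCA1, chosen after its values were seen, was lower at 12 h (-0.95) and higher at 24 h (0.66), with a difference between the times of -1.61 ± 0.23 (SE, adjusted p = 2.15e-04). KIF15, a mitotic kinesin, differed by -1.46 at 12 h and 0.46 at 24 h (-1.92 ± 0.26 SE, adjusted p = 1.46e-04), and ADD3, a cytoskeletal adducin, was -0.98 at 12 h and 0.95 at 24 h (-1.94 ± 0.24 SE, adjusted p = 7.48e-05). TP53BP1, not called at either time, had a difference between the times of -0.63.

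Very long genes did not share this pattern. At 24 h 34 of 67 were lower and 0 higher, with a median of -0.81, beside 3.23% lower and 5.32% higher among all genes. Between the times, 9 were more positive and 5 more negative at 12 h, beside 2.15% and 7.75% of all genes. The more negative share of the list lay near that over all genes. DIAPH2 (-2.96 at 24 h), DOCK4 (-2.77), GPHN (-2.70), SEMA3E (-2.60) and NEGR1 (-2.10) had no called difference between the times. Their relatives DIAPH3 (-1.82), DOCK10 (-1.85) and SEMA3A (-1.03) had called differences between the times and were more negative at 12 h. PTPRM, a receptor phosphatase, was -0.62 at 12 h (not called without Cis array A, at -0.48) and -2.80 at 24 h (2.17 ± 0.19 SE, adjusted p = 8.99e-06). STX8, a syntaxin of endosomes, was -0.024 at 12 h and -2.10 at 24 h (2.07 ± 0.31 SE, adjusted p = 3.18e-04).

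On the higher side, some leading genes had a smaller difference at 24 h and others did not. Leading genes were chosen for large 12 h differences, and those values also enter the test between the times. A smaller difference at 24 h therefore partly follows from how they were chosen. ID2 stood at 1.84 at 24 h, a difference between the times of 2.34 ± 0.31 (SE, adjusted p = 1.35e-04), and SNAI1 at 0.41 (2.09 ± 0.26 SE, adjusted p = 8.76e-05). TNFSF15, a cytokine of the TNF family, was at 6.46, 7.29 and 7.15 on the Cis arrays and 4.60 and 4.60 on the TM arrays at 12 h (2.37 ± 0.21 SE, adjusted p = 5.39e-08) and differed by 0.025 at 24 h (2.34 ± 0.28 SE, adjusted p = 7.02e-05). MT1X (-0.016 at 24 h), GADD45B (0.12), HBEGF (-0.028) and GPX1 (-0.21) were near or below 0 at the later time, each with a called difference between the times (1.24, 1.77, 1.22 and 1.41). SLFN5 (2.53), CXCL8 (2.25), TXNIP (2.09), CYP1B1 (2.29), CDKN1A (1.24) and BCL2A1 (1.55) were called at both times, and their difference between the times did not pass the test. KLHL4 (-1.96 at 12 h and 0.022 at 24 h) and DOCK11 (-1.84 and 0.058) were lower at 12 h and close to 0 at 24 h. TNFSF15, KLHL4 and DOCK11 were also chosen for their difference between the times, among the 6 largest in its direction.

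**Figure D5:**
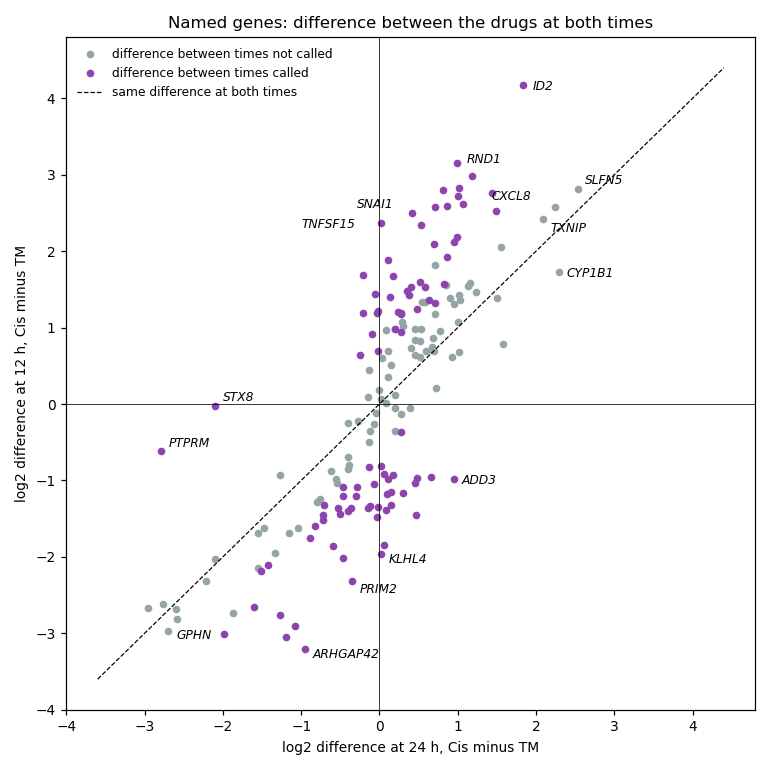
Log2 difference Cis minus TM at 24 h (x axis) and at 12 h (y axis) for the 175 named genes. Each point is 1 gene, in purple where the difference between the times was called. Some genes, TNFSF15, KLHL4 and STX8 among them, were chosen for that difference. SLFN5 (2.53 and 2.82) and GPHN (-2.70 and -2.97) lie near the dashed line of equal differences, TNFSF15 and KLHL4 near 0 at 24 h, and STX8 near 0 at 12 h.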

How the data were processed

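RNA of MDA-MB-231 cells was measured on gene-level microarrays. Per the submitters' processing notes, the authors summarized probe intensities with RMA, and the deposited values are log2 expression values, used here as deposited. RMA compresses differences at low signal, and the table holds no measure of background for a probe set. Of 33297 rows, 19460 carried 1 gene symbol in the platform annotation, and 1754 rows with several symbols and 12083 with none were not used. The 769 genes with more than 1 row were represented by the row with the highest mean. All 20 columns matched an array title.

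One linear model with 7 group means was fitted to all 20 arrays with limma 3.58.1 in R 4.3.3 (13 residual degrees of freedom), because TM at 12 h has only 2 arrays, and contrasts were moderated with eBayes. The contrasts were Cis minus TM at 12 h, the same at 24 h, and the first minus the second. The Benjamini-Hochberg adjustment ran over 18417 genes, and calls required more than a 1.5-fold change and an adjusted p under 0.05. The median SE of a 12 h difference was 0.151, and the number of arrays limits the precision. In simulated data with these groups, 91 of 100 genes changed by 2-fold and 97 of 100 changed by 3-fold were recovered. There were 8 false calls among the unchanged genes. The simulation used independent normal noise of equal spread on all arrays and few changed genes. It therefore does not cover an array that stands apart, as Cis array A did, and does not measure errors among the calls made here.

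The genes named are the 12 largest called differences in each direction with no overlap between arrays, up to 6 called genes in each direction and up to 2 uncalled genes from each of 35 lists, genes of copper handling and metallothioneins, genes the study names and the 6 largest differences between times in each direction. The members and lists were chosen with earlier results of these data known, and lists are described by counts and medians without a test. Alternatives were other scalings, array weights, leaving out each array, a replicate block, filters and thresholds. Promoter and microRNA sequences are from RefSeq (GRCh38.p14), and promoters were searched over 250 bases before the start.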

Additional observations from a re-analysis of the deposited data

Results flagged for a closer look

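Among the 175 genes named from the 12 h comparison and the lists, 92 had a called difference between the drugs that changed with time (45 more positive and 47 more negative at 12 h than at 24 h), against 2.15% and 7.75% of all genes. Many of these genes were chosen by their 12 h values, which also enter this test, and others by this difference itself. The share is therefore no measure of how common the change is. The 60 below were past 2-fold (33 more positive and 27 more negative), and the other 32 ranged in size from 0.604 to 0.997. Each value is the log2 difference Cis minus TM at 12 h less that at 24 h, and what marked each result was the test of that difference.

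The 33 genes more positive at 12 h had varied roles. The transcription regulators ID2 (2.34), SNAI1 (2.09) and NR4A2 (1.32) were among them. So were RND1 (2.16), RGS2 (1.81), BAMBI (1.73), HBEGF (1.22), TNFSF15 (2.34) and IL24 (1.499). Stress and damage genes with such a value were GADD45B (1.77), PMAIP1 (1.13), HSPA6 (1.27) and GPX1 (1.41). Among metabolic and metal-related genes it was 1.24 for MT1X, 1.01 for MT1F, 1.08 for AOC2, 1.71 for SAT1, 1.80 for STARD5, 1.55 for MYLIP, 1.19 for ALDOC and 1.05 for ANKRD37. The arrestin-like genes ARRDC3 (1.17) and ARRDC4 (1.03) changed with time in the same direction. For RNA genes and others it was 1.90 for SNORD43, 1.51 for MIR222, 1.81 for MIR22HG, 1.39 for H2BC12, 1.13 for H3C1, 1.07 for WDR74, 1.87 for DEXI and 1.98 for OR1F2P. In PTPRM (2.17) and STX8 (2.07) the positive value came from a Cis level below TM at 24 h.

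The 27 genes more negative at 12 h included members of the replication, repair and mitosis lists. Replication genes were PRIM2 (-1.97), POLA1 (-1.55), ORC3 (-1.30) and RFC3 (-1.11). Repair genes were BRCA1 (-1.61), POLQ (-1.48), BLM (-1.46), BRIP1 (-1.45), FANCI (-1.45) and MRE11 (-1.27). Mitosis and cell cycle genes were KIF15 (-1.92), KIF4A (-1.47), RB1 (-1.33), BUB1B (-1.22) and the cohesin gene STAG1 (-1.49). Cytoskeletal and guidance genes were ARHGAP42 (-2.26), ADD3 (-1.94), DOCK11 (-1.90), DOCK10 (-1.85), DIAPH3 (-1.82), RASAL2 (-1.05) and SEMA3A (-1.03). The remaining values were -1.98 for KLHL4, -1.48 for H1-4, -1.26 for ELOVL6, -1.22 for ATP7A and -1.08 for RIGI.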

How the results depend on the processing

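No called direction of a named gene reversed under any alternative run. The counts of 1271 higher and 1888 lower genes moved to 348 and 839 at a fold change over 2, and the higher count to 2310 with no minimum fold change. Leaving out 1 array gave 1106 to 1377 higher and 1581 to 2085 lower genes. The 396 genes more positive at 12 h than at 24 h moved to 699 at an unadjusted p, to 110 at a fold change over 2 and to 216 to 431 without 1 array, with 218 without TM array A and 216 without TM array B at 12 h. The 1428 more negative genes moved to 406 at a fold change over 2 and to 829 to 1723 without 1 array, with 829 without TM array A at 12 h. The other settings kept these 4 counts within 1.5 times. Of 154 named genes called, 5 lost the call with centred arrays, 5 with quantile normalization, 6 with cyclic loess and 3 with array weights, and 7 changed when 1 of the 5 arrays was left out.

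Nothing pairs arrays of the same letter. Residuals of same-letter Cis and TM arrays at 12 h correlated at -0.228 (A) and -0.222 (B), and over all same-letter pairs at -0.423 to 0.613. With the letter as a replicate block, the counts were 1328 higher, 1931 lower, 428 more positive and 1477 more negative genes. With 2 TM arrays at 12 h, the fit takes its spread from all groups, and with 1 left out the lone array is assumed to vary like the others.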
